A study of Mus musculus with 4 samples.

Results

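Aldh1a1 and Aldh1a7 are a pair of neighbouring mouse genes for cytosolic aldehyde dehydrogenases. They were chosen by name, with their levels by tubule class and by library already known from earlier results of these data, and are 2 of the 21279 genes listed with counts in 4 Drop-seq libraries of dissociated kidney cortex. Drop-seq captures single cells in droplets and gives each mRNA molecule a barcode of its cell and a unique molecular identifier (UMI), so a value is a number of counted molecules. There were 2 libraries from Akita mice (C57BL/6-Ins2Akita/J, whose mutated insulin gene Ins2 leads to diabetes), aged 116 and 119 days, and 2 from wild-type mice, aged 45 and 51 days. Age ran with genotype, so the effects of both cannot be told apart, and the growth protocol names a housing time longer than any of these ages. Both genotypes were otherwise untreated and fed standard chow, and the cortex of 1 kidney was sieved and digested with collagenase IV for each library. A library is 1 replicate.

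Aldehyde dehydrogenases of the ALDH1A family oxidise retinaldehyde, the aldehyde form of vitamin A, to retinoic acid. Retinoic acid binds nuclear receptors of the RAR and RXR families and so controls transcription, and enzymes of the CYP26 family break it down. Aldh1a1, Aldh1a2 and Aldh1a3 encode the classical retinaldehyde dehydrogenases, while Aldh1a7 is a rodent paralog of Aldh1a1 that has been described as poorly active on retinaldehyde. The proximal tubule takes up retinol bound to its carrier protein from the filtrate through the receptor megalin, encoded by Lrp2.

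Both genes lie on mouse chromosome 19 (GRCm38, GENCODE vM21). Aldh1a1 (ENSMUSG00000053279) spans chr19:20492715-20643465 on the plus strand, and Aldh1a7 (ENSMUSG00000024747) spans chr19:20692953-20727562 on the minus strand. Between them lie 49487 bases and 0 annotated genes, and their 3′ ends face each other. Their main transcripts had 13 exons each, 2053 and 2066 bases, and a coding sequence of 501 codons in both. Without gaps, 1380 of 1506 coding bases were identical (91.6%), against 83.3% of the aligned 3′ untranslated region. The longest stretch identical in both transcripts was 100 bases. Drop-seq primes on the poly(A) tail, and in the last 500 bases 0 of 451 windows of 50 bases occurred in the other transcript, while over the whole Aldh1a1 transcript 7.54% did. A read of at least 50 bases that matches exactly within these last 500 bases can therefore be told apart between the paralogs. Reads from further upstream enter the more alike coding sequence, and where the reads fell was not tested. How reads matching both genes were counted is not given in the sources used here. Annotated genes on the opposite strand, C730002L08Rik and the pseudogene Gm6684, overlap only the upstream part of the Aldh1a1 locus, before its main transcript starts. Because molecules were counted at their 3′ ends, levels of both genes are compared per UMI, without scaling by length.

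The ends of both coding sequences are shown because they adjoin the part of the transcripts that Drop-seq reads, and show how small the differences are there. These are the last 90 coding bases with the stop codon, from the GENCODE vM21 transcripts, with the 7 differing bases in capitals.
Aldh1a1 coding end: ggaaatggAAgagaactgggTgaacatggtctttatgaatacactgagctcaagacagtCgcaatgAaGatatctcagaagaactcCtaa
Aldh1a7 coding end: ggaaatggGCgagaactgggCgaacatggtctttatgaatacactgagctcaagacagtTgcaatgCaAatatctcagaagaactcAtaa

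The promoters are shown because the counts below differ between the genes although the bases next to their start sites are nearly the same. Each run is the 250 bases before the start site (RefSeq, GRCm38.p6), at chr19:20601718-20601967 on the plus strand for the downstream start of Aldh1a1 and at chr19:20727557-20727806 on the minus strand for Aldh1a7. Capitals mark the letters CCAAT and the octamer ATGCAAAT, searched on both strands and chosen after these sequences were seen.
Aldh1a1 promoter: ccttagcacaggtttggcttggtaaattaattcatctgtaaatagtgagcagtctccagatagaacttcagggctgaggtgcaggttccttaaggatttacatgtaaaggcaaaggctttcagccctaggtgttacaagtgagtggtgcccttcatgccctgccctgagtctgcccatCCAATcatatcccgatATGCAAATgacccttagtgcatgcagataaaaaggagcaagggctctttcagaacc
Aldh1a7 promoter: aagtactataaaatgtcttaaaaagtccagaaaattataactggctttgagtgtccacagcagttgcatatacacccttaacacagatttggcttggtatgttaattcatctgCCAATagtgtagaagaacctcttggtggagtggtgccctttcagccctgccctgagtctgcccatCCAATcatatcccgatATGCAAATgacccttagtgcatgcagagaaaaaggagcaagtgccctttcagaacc

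Of the 100 bases nearest the start, 94 were identical in both genes. In both, the octamer began at base -56 and a CCAAT at base -72 relative to the start, and Aldh1a7 had a further CCAAT at base -137. Of 32851 promoter windows of the same length, 526 held the octamer, 33.9% held CCAAT and 0.767% held both. A match is a description of letters and no evidence that a factor binds there. RefSeq lists a second, upstream start of Aldh1a1 (at base 20492583), whose window held neither motif.

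The files held between 1016719 and 1303453 UMIs. Cells are the barcodes with 200 or more genes counted and no more than 50% mitochondrial UMIs. They numbered 311 in Akita replicate 1, 600 in Akita replicate 2 and 564 in Wild-type replicate 1, with 441 in Wild-type replicate 2. The median cell had between 746.5 and 835 UMIs. A total of 884 barcodes occurred both in Akita replicate 2 and in the wild-type library numbered 1, while any other pair of files shared 3 or 4. Of the cells of Akita replicate 2, 73.0% had such a shared barcode, and of those of Wild-type replicate 1, 80.5%. They carried 88.4% and 91.5% of the UMIs of these cells, so most of this material is counted in both genotypes. Levels by class and cluster, ratios to Kap and profile likeness are given as deposited unless said otherwise. Numbers of cells and pooled UMIs given as deposited count a shared barcode once in each file. The levels by library, the comparisons of genotypes and the share of Aldh1a7 are also given with these barcodes treated in other ways. In addition, between 96 and 108 retained barcodes per file differed by 1 base from another of the same file, and whether these are separate cells was not tested.

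Cells were clustered over all 4 libraries without the members among the clustering genes, and named from marker genes. Proximal tubule-like cells, led by genes such as Slc22a6, Ass1, Gatm and Slc34a1, were 1453 of 1916 cells in 5 clusters. A cluster of 288 loop of Henle-like cells (Umod, Egf, Slc12a1) also carried 5 markers of the distal convoluted tubule, which was not separated. A further 111 cells were intercalated-like (Atp6v1g3, Slc26a4), 60 were connecting tubule-like (Calb1, S100g) and 4 stayed unnamed. Markers of podocytes and endothelium summed to 5.90 and 3.18 UMIs per 1000000 UMIs (CPM) in the proximal tubule-like cells.

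Aldh1a7 was the more abundant of the pair in every library. Over all retained cells it had 39 UMIs in Akita replicate 1, 63 in Akita replicate 2 and 106 in Wild-type replicate 1, with 9 in Wild-type replicate 2. Scaled to the UMIs of each library these were 69.9, 83.4, 130 and 12.8 CPM. Wild-type replicate 2 stood lowest, the other wild-type library highest, and both Akita libraries lay between them. Akita averaged 76.6 ± 9.52 CPM and wild type 71.6 ± 83.2 CPM (SD, n = 2 libraries each), and the Akita values lay within the wild-type range.

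Aldh1a1 was counted rarely. Akita replicate 1 had 1 UMI, Akita replicate 2 had 12, Wild-type replicate 1 had 23 and Wild-type replicate 2 had 2, which is 1.79, 15.9, 28.3 and 2.84 CPM. Akita replicate 1 and Wild-type replicate 2 were thus under 3 counts (5.38 and 4.26 CPM), the limit that a count of 0 would allow. Akita averaged 8.84 ± 9.96 CPM and wild type 15.6 ± 18.0 CPM (SD, n = 2 each), with overlapping values. A UMI of Aldh1a1 was found in 29 cells (1.51%) and one of Aldh1a7 in 135 cells (7.05%), with at most 3 and 10 UMIs in a cell. These numbers count a shared barcode once in each file, so the separate cells may be fewer. Counting barcodes that differ by 1 base as 1 cell left 29, 32, 50 and 8 cells with an Aldh1a7 UMI, in place of 30, 37, 60 and 8. For Aldh1a1 it left 1, 8, 16 and 2 in place of 1, 8, 18 and 2.

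All 38 UMIs of Aldh1a1 fell in proximal tubule-like cells. Its level there was 2.31 CPM in Akita replicate 1, 21.2 in Akita replicate 2 and 35.4 in Wild-type replicate 1, with 3.62 in Wild-type replicate 2, a mean of 15.6 ± 15.7 CPM (SD, n = 4). The 463 other cells had 0 of 627989 UMIs, which allows a level of up to 4.78 CPM (3 counts). Pooled over libraries, the proximal tubule-like level was 17.3 CPM (12.2 to 23.7, exact 95% Poisson interval). Such intervals, and the limit of 3 counts, cover counting error only. Pooled intervals also take the UMIs of a shared barcode in both files as separate counts, and so may be too narrow. Since the members were chosen with class levels already known, the classes are described without a test.

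Proximal tubule-like cells held 203 of the 217 Aldh1a7 UMIs, and the pooled level was also highest there. It reached 83.1 CPM in Akita replicate 1, 104 in Akita replicate 2 and 155 in Wild-type replicate 1, with 12.7 in Wild-type replicate 2, a mean of 88.8 ± 59.1 CPM (SD, n = 4). In intercalated-like cells 7 UMIs gave a pooled level of 57.8 CPM (23.2 to 119), in connecting tubule-like cells 1 UMI gave 16.2 CPM, and in loop of Henle-like cells 6 UMIs gave 13.6 CPM (4.98 to 29.5). In the order of library means, proximal tubule-like came first, then intercalated-like (60.1 ± 43.3 CPM) and connecting tubule-like (59.8 ± 120 CPM), then loop of Henle-like (13.8 ± 5.74 CPM, SD, n = 4). No neighbours in this order differed by more than the spread over libraries. In Wild-type replicate 2, the proximal tubule-like level of 12.7 CPM lay below the loop of Henle-like level of 20.0 CPM, each from 7 UMIs or fewer. The log2 ratio of proximal tubule-like to all other cells (CPM plus 10) averaged 1.33 ± 0.94 over libraries as deposited. With each shared barcode kept in 1 file it was 0.74 ± 1.51 (SD, n = 4), with Akita replicate 2 lowest at -0.93, so that 2 of 4 libraries were below 0. As deposited Wild-type replicate 2 alone was, at -0.04.

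**Figure D1:**
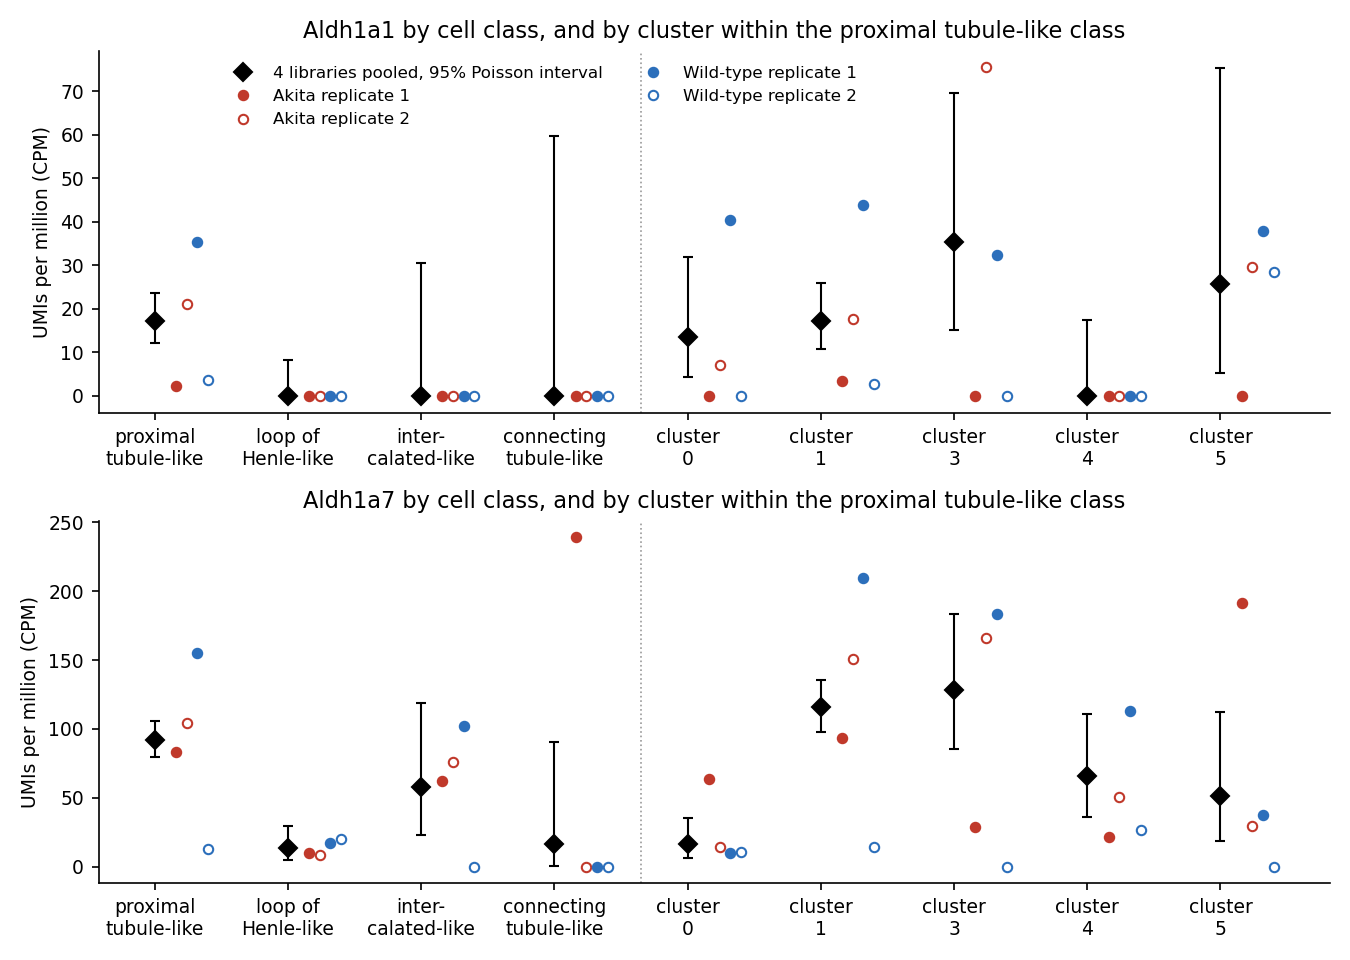
Levels of Aldh1a1 (top) and Aldh1a7 (bottom) in CPM (vertical axes) for 4 cell classes and, right of the dotted line, for the 5 clusters within the proximal tubule-like class; diamonds are the 4 libraries pooled with exact 95% Poisson intervals and circles are single libraries. Aldh1a1 is at 0 outside the proximal tubule-like class, and Aldh1a7 reaches 116 and 128 CPM in clusters 1 and 3 but 16.4 CPM in cluster 0, all pooled, while the order of the clusters differs between libraries.

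RNA released from broken cells is captured with every cell, so the level in other classes was set beside that of Kap, an abundant androgen-regulated transcript of the proximal tubule. Of the loop of Henle-like cells 94.1% had a Kap UMI (median depth 802.5 UMIs), and of the proximal tubule-like cells 97.0% (median depth 785). Proximal tubule-like cells had 2.23 Aldh1a7 UMIs per 1000 Kap UMIs (1.93 to 2.56), and loop of Henle-like cells had 2.26 (0.830 to 4.92). At the proximal tubule-like ratio, 5.92 Aldh1a7 UMIs would accompany the Kap UMIs of the loop of Henle-like cells, where 6 were counted. Whether these 6 UMIs come from released RNA was not tested, and the ratio itself ran from 0.210 to 7.89 between proximal tubule-like clusters. Intercalated-like cells had 7 against 1.74 at that ratio, or 8.95 per 1000 Kap UMIs (3.6 to 18.4). This interval lies above that of the proximal tubule-like ratio and includes the 4.5 per 1000 (3.64 to 5.51) of barcodes below the cell threshold. The 7 UMIs came from 7 barcodes, 1 in Akita replicate 1 and 3 each in Akita replicate 2 and Wild-type replicate 1, the libraries that share cells. Wild-type replicate 2 had 0. For Aldh1a1 the same calculation gives 1.11 UMIs in the loop of Henle-like class, where 0 were counted.

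Within the proximal tubule-like class the pooled levels differed between clusters. Aldh1a7 was at 16.4 CPM (6.00 to 35.6) in cluster 0, whose 426 cells were led by Slco1a1, Lpl, Napsa, Slc7a13 and Kap together with the haemoglobin gene Hbb-bs. It was at 128 CPM (85.6 to 184) in cluster 3, 284 cells led by Cyp2d26, Spp2, Gsta2 and the glucose transporter gene Slc2a2. These pooled levels lean on Akita replicate 2 and Wild-type replicate 1, the libraries that share barcodes, where cluster 3 had 166 and 183 CPM against 14.1 and 10.1 in cluster 0. In Akita replicate 1 the order was the other way, with 28.9 CPM in cluster 3 and 63.6 in cluster 0, from 1 and 2 UMIs. In Wild-type replicate 2, cluster 3 had 0 UMIs and cluster 0 had 1 (10.6 CPM). Over the libraries cluster 3 averaged 94.5 ± 93.5 CPM and cluster 0 24.6 ± 26.1 CPM (SD, n = 4), which does not exceed the spread. Pooled per 1000 Kap UMIs, cluster 0 had 0.210 Aldh1a7 UMIs and cluster 3 had 5.79. Cluster 4, with 215 cells led by Slc5a12 and Slc34a3, transporters of lactate and phosphate, had 65.9 CPM of Aldh1a7 but 0 Aldh1a1 UMIs, which allows up to 14.1 CPM. Cluster 0 held more summed CPM of the S2 and S3 markers (9613 and 5151) than cluster 4 (3231 and 1385). Cluster 4 held the most S1 markers (10085 against 4249 CPM in cluster 0). Cluster 1 was near cluster 0 in the S2 and S3 markers (8892 and 4431), yet its Aldh1a7 averaged 117 ± 83.5 CPM over the libraries. The levels thus did not follow these marker sums.

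Depth differed between these clusters. Cluster 1 gathered 348 cells of high depth (median 2818 UMIs), and cluster 5 gathered 180 of low depth (median 499.5 UMIs). Cluster 1 alone had 148 of the Aldh1a7 UMIs (116 CPM) and 22 of the Aldh1a1 UMIs (17.2 CPM). Inside it, Aldh1a7 was at 93.5, 151, 210 and 14.2 CPM in Akita replicates 1 and 2 and Wild-type replicates 1 and 2, the same order as in the whole class. A UMI of Aldh1a7 was found in 20.7% of cluster 1 cells and in 1.41% of cluster 0 cells. After thinning each cell to 400 UMIs, which left out 11 and 54 shallower cells, these shares were 4.90% and 0.842%. Proximal tubule-like cells with an Aldh1a7 UMI had a median of 1755 UMIs, against 738.5 in those without. Both members were found together in 10 cells, of 29 with Aldh1a1 and 121 with Aldh1a7.

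The share of cells in each cluster also varied between libraries. Of the proximal tubule-like cells, cluster 0 held 20.8%, 33.9%, 24.2% and 36.6% in Akita replicates 1 and 2 and Wild-type replicates 1 and 2. Cluster 3 held 17.6%, 20.3%, 25.1% and 12.4% in the same order. Wild-type replicate 2, lowest in Aldh1a7, thus had the largest share of cluster 0 and the smallest of cluster 3. The part of this makeup in the levels was not tested.

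The shared barcodes bear directly on the members. All 12 Aldh1a1 and all 63 Aldh1a7 UMIs of Akita replicate 2 lay in barcodes that also occur in the file of Wild-type replicate 1. In Wild-type replicate 1 itself, 20 of 23 and 91 of 106 did. A shared barcode with an Aldh1a7 UMI in either file had one in both in 45 of 83 cases, and for Aldh1a1 in 11 of 21. The shared barcodes were divided into 2 groups by the ratio of their UMIs in Akita replicate 2 to those in Wild-type replicate 1. The method always gives 2 groups, and whether the ratios form separate groups was not tested. The ratio was higher in 363 barcodes (median 1.33) and lower in 521 (median 0.546).

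The members differed in level between these groups. In the retained cells among the 363 barcodes, Aldh1a7 had 5 UMIs (11.1 CPM) when counted in Akita replicate 2 and 6 (18.0 CPM) when counted in Wild-type replicate 1. In those among the 521 it had 58 UMIs (264 CPM) and 85 UMIs (207 CPM). Aldh1a1 had 0 UMIs in the first group in both files, and 12 (54.7 CPM) and 20 (48.7 CPM) in the second. For both members the levels differed more between the groups than between the files. Because both files count the same barcodes, close levels between the files within a group are no independent evidence. Why the groups differ was not tested.

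**Figure D2:**
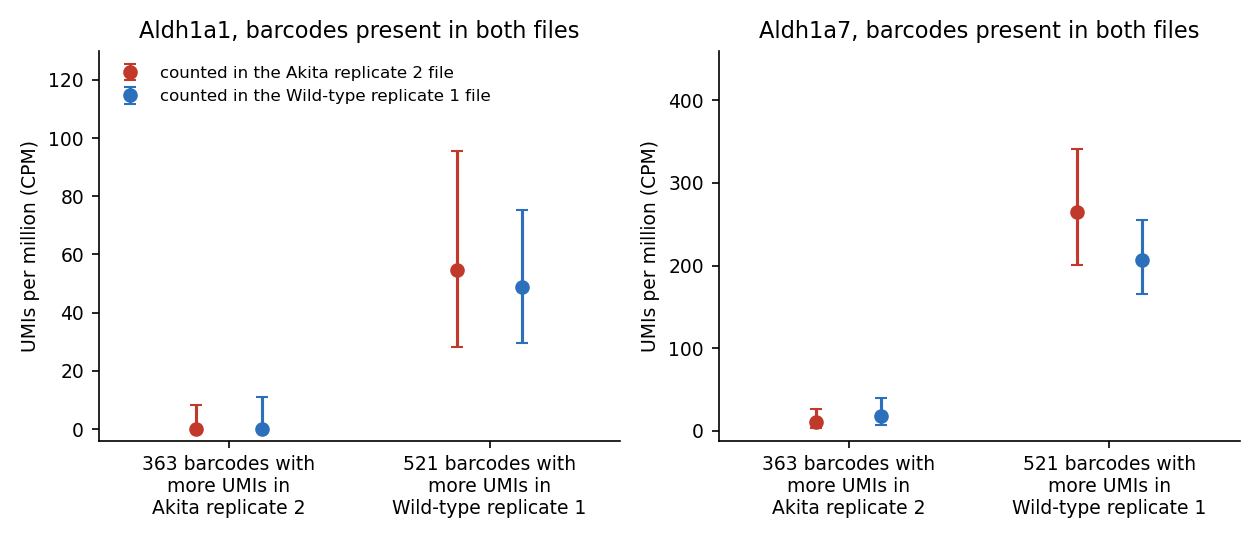
Aldh1a1 (left) and Aldh1a7 (right) in CPM (vertical axes) over the retained cells whose barcodes occur in both the file of Akita replicate 2 (red) and that of Wild-type replicate 1 (blue); points are sums over cells and bars are exact 95% Poisson intervals. In each panel the 363 barcodes with the higher ratio of UMIs in Akita replicate 2 to Wild-type replicate 1 are on the left. The 521 with the lower ratio are on the right, and "more UMIs in" on the axis is relative to the other group. In both files Aldh1a7 is at 18.0 CPM or less on the left and at 207 CPM or more on the right.

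The cells whose barcodes occur in 1 of these files only were kept where they were counted. They were 162 retained cells in Akita replicate 2 and 110 in Wild-type replicate 1. Their median depths of 437.5 and 545.5 UMIs were below the 746.5 and 819 of all retained cells of these libraries. Both files hold 2000 strings, so a barcode missing from 1 of them may lie outside its list. Whether the cells with barcodes in 1 file only belong to and represent their libraries was not tested. In proximal tubule-like cells of this kind, Akita replicate 2 had 0 UMIs of either member among 67411, which allows up to 44.5 CPM. Wild-type replicate 1 had 15 UMIs of Aldh1a7 (227 CPM, 127 to 375) and 3 of Aldh1a1 (45.4 CPM, 9.37 to 133) among 66045. For Aldh1a7 the interval of Wild-type replicate 1 lies above the level that 0 counts allow in Akita replicate 2. Kap ran the other way, at 59901 CPM in these cells of Akita replicate 2 and 12204 CPM in those of Wild-type replicate 1.

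Each shared barcode was then assigned to a single file, Akita replicate 2 for the group of higher ratio and Wild-type replicate 1 for that of lower ratio. This assignment is assumed, not known. The proximal tubule-like level of Aldh1a7 became 83.1 CPM in Akita replicate 1, 5.28 (2 UMIs) in Akita replicate 2 and 233 in Wild-type replicate 1, with 12.7 in Wild-type replicate 2. Aldh1a1 was then at 2.31, 0, 54.7 and 3.62 CPM, where 0 allows up to 7.91 CPM. Within each genotype Aldh1a7 was high in the library numbered 1 and low in the one numbered 2. For Aldh1a7 the genotypes again overlapped. For Aldh1a1 both Akita values were below both wild-type values, a pattern that 16.3% of the 5285 genes tested had, but Aldh1a1 was too low to be among them and 3 of its 4 values rest on 2 UMIs or fewer.

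**Figure D3:**
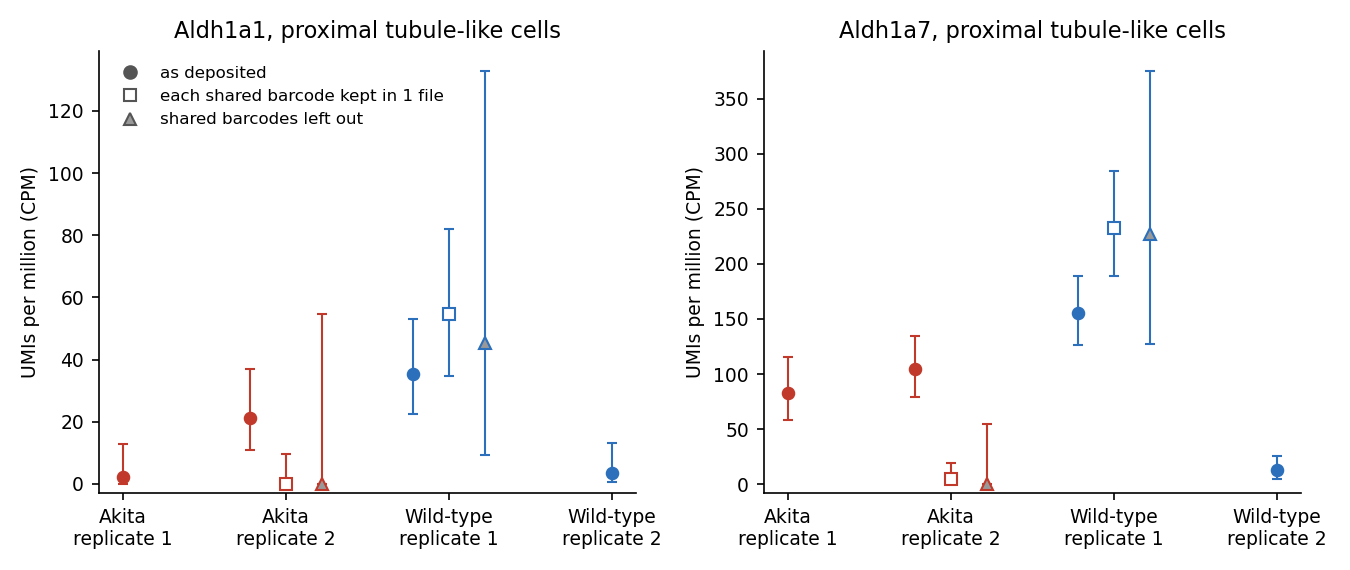
Aldh1a1 (left) and Aldh1a7 (right) in CPM (vertical axes) in the proximal tubule-like cells of each library (horizontal axes), as deposited (filled circles), with each shared barcode kept in 1 file (open squares) and with shared barcodes left out (grey triangles); bars are exact 95% Poisson intervals, and Akita replicate 1 and Wild-type replicate 2 share almost no barcodes, so they have 1 value. For Aldh1a7, Akita replicate 2 moves from 104 to 5.28 CPM and Wild-type replicate 1 from 155 to 233 CPM when each barcode is kept once.

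Aldh1a7 was also set among all tested genes by the ratio of the libraries numbered 1 to those numbered 2. The mean of this ratio over genotypes ranks differences in the same direction, not spread. With each shared barcode kept in 1 file, both libraries numbered 1 were above both numbered 2 over all retained cells (69.9 and 208 against 9.33 and 12.8 CPM), a pattern that 21.4% of the 6306 tested genes had. In proximal tubule-like cells 22.2% of 5285 genes had it, Aldh1a7 among them. On the log2 scale of CPM plus 10, number 1 exceeded number 2 by 2.05 among Akita libraries and by 3.26 among wild-type libraries, and the mean of 2.65 was the highest of the 6306 genes. As deposited the libraries numbered 1 and 2 overlapped. The ratio was then -0.22 among Akita and 2.62 among wild-type libraries, and the mean of 1.20 ranked 5 of 7169. This ranking was looked at after the values were seen, and Aldh1a7 was chosen with its levels by library known, so its rank is a description. The labels give the replicate numbers no meaning beyond a name. Kap was lower in the libraries numbered 1, at 24700 and 30941 CPM over all retained cells as deposited, against 39893 and 36697 in those numbered 2. The share of all tested genes with this order is not reported here. The part of Kap, or of what it follows, in the levels of the members was not tested.

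Akita and wild type were compared on UMIs summed per library with edgeR's quasi-likelihood test (2 against 2, two-sided, Benjamini-Hochberg adjustment over all genes tested, threshold 0.05). Neither member passed the test. Because of the shared barcodes, many cells enter both sides of it. Over all retained cells the log2 fold change of Akita over wild type was 0.06 ± 0.55 (SE) for Aldh1a7 and -0.74 ± 0.85 for Aldh1a1. Here and below, the edgeR SE is the absolute fold change divided by the square root of the F statistic. The SE that DESeq2 estimated was larger, 1.38 for Aldh1a7 and 1.84 for Aldh1a1. The edgeR adjusted p was 1.00 for both members. The background was the same, since 0% of 7169 genes passed, with 68 at an unadjusted p under 0.05. DESeq2 called 0 genes as well, with 7 at that p, and limma-voom 0, with 57.

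In proximal tubule-like cells the fold changes were 0.11 ± 0.58 for Aldh1a7 and -0.67 ± 0.88 for Aldh1a1 (log2, ± SE), with edgeR adjusted p-values of 1.00. Here 0% of 6107 genes passed, with 56 at an unadjusted p under 0.05. DESeq2 and limma-voom also called 0 there, with 6 and 51 at that p. The SE from DESeq2 was 1.46 for Aldh1a7 and 1.84 for Aldh1a1. In loop of Henle-like cells neither member had the counts to be tested, and 0% of 1615 genes passed, with 18 at an unadjusted p under 0.05.

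The value for Aldh1a7 rested on single libraries. With 1 library left out, the lone library of its genotype is assumed to vary like the others. Without Wild-type replicate 1 the fold change was 2.92 ± 0.57 in proximal tubule-like cells and 2.61 over all retained cells. Leaving out that file does not take out its barcodes. All 63 Aldh1a7 UMIs of Akita replicate 2 lay in barcodes that Wild-type replicate 1 shares. In proximal tubule-like cells the fold change was -0.78 without Wild-type replicate 2 and -0.15 without Akita replicate 2. Aldh1a1 ranged from -3.09 without Akita replicate 2 to 1.79 without Wild-type replicate 1. With each shared barcode kept in 1 file Aldh1a7 was -1.40 ± 0.94, and with each kept in the other file it was 2.16 ± 0.58, with edgeR adjusted p-values of 1.00 and 0.541. The direction between genotypes was thus set by which libraries and barcodes entered.

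**Figure D4:**
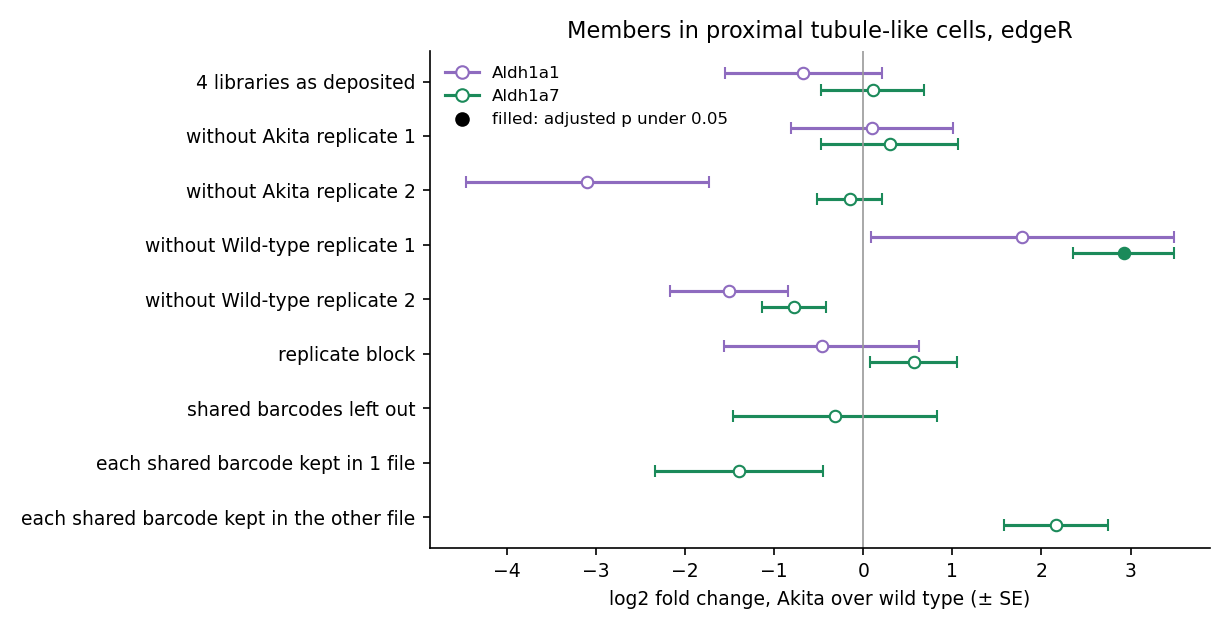
Log2 fold change of Akita over wild type (horizontal axis, edgeR) for Aldh1a1 (purple) and Aldh1a7 (green) in proximal tubule-like cells. Rows are 9 treatments of libraries and barcodes (vertical axis). Bars are ± SE, taken from the fold change and the F statistic, and filled points passed an adjusted p of 0.05. Aldh1a7 runs from -1.40 to 2.92, with 1 filled point, and Aldh1a1 has no value in the lowest 3 rows because its counts fell below the filter.

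Aldh1a7 made up most of the UMIs of the pair. In proximal tubule-like cells its share was 97.3% (85.8 to 99.9, exact Clopper-Pearson 95% interval) in Akita replicate 1, 83.1% (72.3 to 91.0) in Akita replicate 2, 81.5% (73.5 to 87.9) in Wild-type replicate 1 and 77.8% (40.0 to 97.2) in Wild-type replicate 2. Akita lay above wild type with 90.2 ± 10.04% against 79.6 ± 2.60% (SD, n = 2 each), although the interval of Wild-type replicate 2, from 9 UMIs, overlaps those of all the others. The difference of 10.6 points had an exact two-sided permutation p of 0.3333, the smallest that 2 against 2 can give. After assigning shared barcodes to a single file the difference was 19.3 points with the same exact permutation p, where Akita replicate 2 rests on 2 UMIs. With every deposited barcode the genotypes overlapped, at 83.2% in Akita replicate 2 and 84.2% in Wild-type replicate 2. The difference was then 5.24 points (exact permutation p of 0.6667).

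Among the other genes of the pathway, the remaining classical retinaldehyde dehydrogenases were almost absent, with 2 UMIs of Aldh1a2 and 0 of Aldh1a3 in all retained cells. Of 17 other aldehyde dehydrogenases, 8 reached 50 CPM. The highest were Aldh9a1 (638 CPM), which acts in carnitine synthesis, and Aldh2 (531 CPM), the mitochondrial acetaldehyde dehydrogenase. Aldh8a1, known to act on 9-cis-retinaldehyde, had 232 CPM. Aldh1l1, a folate enzyme, was the member of this list with the highest level in intercalated-like cells, 875 CPM against 232 in proximal tubule-like cells.

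Of 19 listed oxidoreductases of retinol and retinaldehyde metabolism, 6 reached 50 CPM. They were Dhrs4 (341 CPM), the alcohol dehydrogenases Adh1 (318) and Adh5 (212), Rdh10 (154), which makes retinaldehyde from retinol, Rdh16 (140) and Dhrs3 (85.5), which reduces retinaldehyde back to retinol. Adh1 was at 398 CPM in proximal tubule-like and 27.2 CPM in loop of Henle-like cells. Of 13 carriers, uptake receptors and storage genes 3 reached 50 CPM. Lrp2 had 1513 CPM, Cubn (cubilin, its partner in uptake) 94.0 and Ttr (transthyretin, which binds the retinol carrier) 84.4. The list's Rbp2, Rbp4, Crabp1, Crabp2 and Stra6 had 0 UMIs.

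At the end of the pathway, Cyp26a1, Cyp26b1 and Cyp26c1 had 0 UMIs among the 2830121 of the retained cells, which allows up to 1.06 CPM each. Of 6 retinoic acid receptors none reached 50 CPM, and Rxra (30.4 CPM) and Rxrb (21.9) were the highest. Of 9 genes known to respond to retinoic acid, Tgm2, a transglutaminase (93.6 CPM), and Dhrs3 reached 50 CPM, and 5 had 0 UMIs. At these depths an absence in the counts does not show absence in the cells.

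None of these pathway genes passed the edgeR test between genotypes in proximal tubule-like cells. Of the other aldehyde dehydrogenases 11 were tested, 6 with a positive and 5 with a negative fold change, at a median of 0.02 against 0.00 for all 6107 genes (log2). Of the oxidoreductases 7 were tested, from -0.11 to 0.06, and of the carriers 5, from -0.65 to 0.17. Aldh2 was at -0.05 ± 0.23, Adh1 at 0.01 ± 0.23 and Lrp2 at 0.17 ± 0.26 (log2, ± SE), with edgeR adjusted p-values of 1.00. Their SE were smaller than the 0.58 of Aldh1a7. With each shared barcode kept in 1 file none passed either, and each of the 18 named genes spanned a narrower fold range over the libraries than Aldh1a7. Aldh2 was then at 732, 470, 722 and 686 CPM in the libraries in the order given above, and Rdh16 at 196, 119, 235 and 150 CPM. Adh1 was low in Wild-type replicate 1 (164 CPM) and between 423 and 488 CPM in the others. Ttr, picked out of the 18 named genes, showed the reverse of Aldh1a7. It had 25.4 and 14.3 CPM in the libraries numbered 1 and 240 and 99.5 CPM in those numbered 2. The order of Aldh1a7 was found in 22.2% of 5285 genes, and the share with the reverse order is not reported here.

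**Figure D5:**
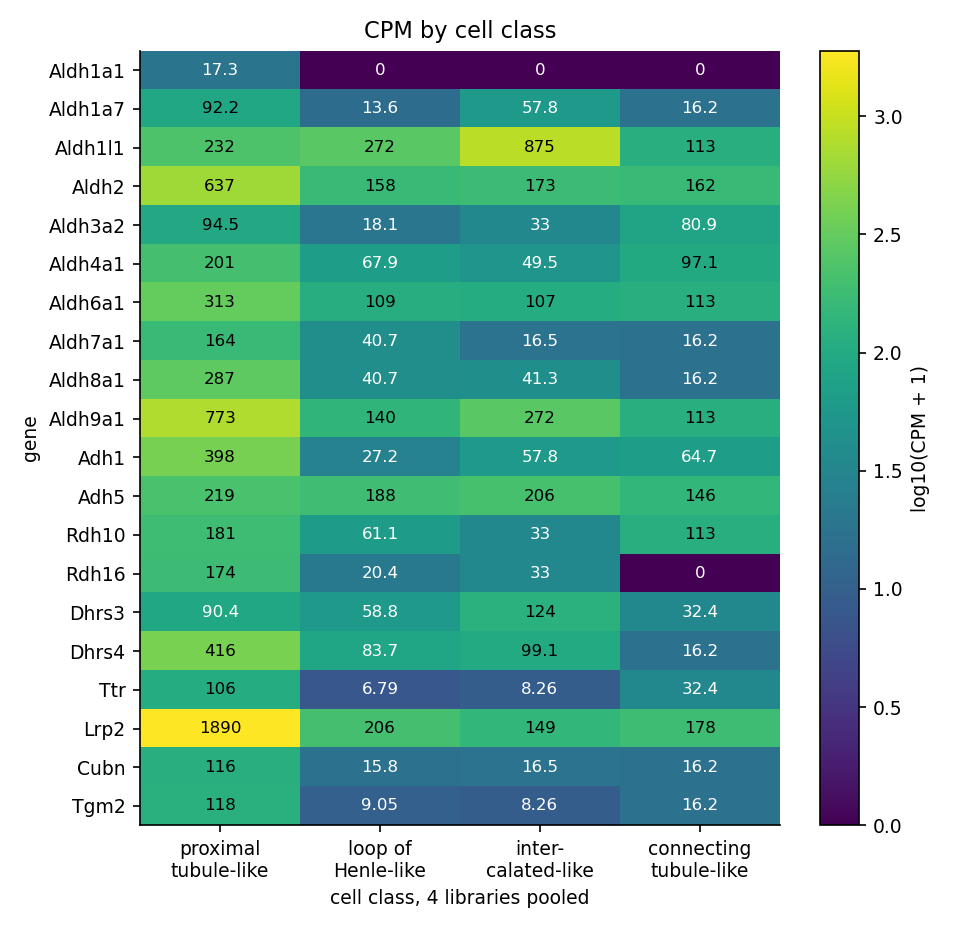
Levels in CPM of the 2 members and of the 18 pathway genes with at least 50 CPM (rows) in 4 cell classes pooled over the 4 libraries (columns), coloured by log10(CPM + 1) and printed in each box. Most rows are highest in the proximal tubule-like class, while Aldh1l1 and Dhrs3 are highest in the intercalated-like class.

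The genes with the profile most like each member were listed by the Pearson correlation of log2(CPM + 10) over the 8 clusters of at least 30 cells, among 2731 genes. The clusters share libraries and depth, so this is a description. For Aldh1a1 they included Tmem64 (r = 0.961), Hspe1, a mitochondrial chaperonin, the pseudogene Gpx4-ps2 and Mpp6 (0.945). For Aldh1a7 they were Gm16374 (0.809), Pcmt1, a protein repair enzyme, Gpat4, an enzyme of glycerolipid synthesis, Eif4a1, a helicase of translation initiation, and Map7 (0.759). The lists share 0 genes, and the correlation between the members themselves was 0.476.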

How the data were processed

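The authors deposited raw UMI counts per gene and cell barcode, 1 file per library. Per the submitters' processing notes the tools were UMI-tools (0.5.3), STAR (2.5.2b) and, for assigning reads to genes, featureCounts (1.6.0). The build named there is GRCm38. The strand setting and the treatment of reads matching several genes are not given in the sources used here. In each file 4 strings that are not barcodes (1.08% to 1.33% of UMIs) were left out. Retained cells (at least 200 genes, at most 50% mitochondrial UMIs) were clustered with scanpy 1.11.5 and leidenalg 0.10.2 (2000 variable genes, 30 components, 15 neighbours, resolution 1). A class needed at least 3 of its markers among the top 50 genes of a cluster. Scrublet called 4 doublets, which were kept. Pathway genes were named at 50 CPM or more. Of the 5 genes most alike to each member in profile, 1 is not reported here.

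UMIs were summed per library and compared with edgeR 4.0.16 in R 4.3.3 (TMM, filterByExpr). DESeq2 1.42.0, limma 3.58.1, other filters, each library left out and other treatments of shared barcodes were alternatives. The edgeR script was tested on simulated data. The members and lists were chosen with earlier results of these data known. The depth of each library limits a level of 0 to between 3.69 and 5.38 CPM over all retained cells.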

Additional observations from a re-analysis of the deposited data

Results flagged for a closer look

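The 2 libraries of each genotype are too few for a search for single outlying libraries. The barcodes below the cell threshold enter no comparison of genotypes or cell classes as reported, apart from their ratio to Kap, and both members were counted in them. They held 94 UMIs of Aldh1a7 (53.7 CPM) and 18 UMIs of Aldh1a1 (10.3 CPM), above the 3 counts that a level of 0 allows. Of the Aldh1a7 UMIs 12 lay in Akita replicate 1, 16 in Akita replicate 2 and 59 in Wild-type replicate 1, with 7 in Wild-type replicate 2, or 26.9, 37.1, 124 and 17.7 CPM. Wild-type replicate 1 was again the highest and Wild-type replicate 2 the lowest. Aldh1a1 had 2, 4, 11 and 1 UMIs in the same order. Whether these barcodes hold shallow cells or free RNA was not tested.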

How the results depend on the processing

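Of 134 values under alternative settings, 105 kept their direction and their side of the threshold or stayed within the spread. The number of genes called between genotypes was 0 as reported. Without 1 library at a time it ranged from 0 to 23 over all retained cells, from 0 to 14 in proximal tubule-like and from 0 to 4 in loop of Henle-like cells, and a lone library is then assumed to vary like the other group. With no filter on low counts it was 1 in both of the first sets. With each shared barcode kept in the other file, an alternative chosen after seeing the data, it was 6 and 4.

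The log2 fold change of Aldh1a7 reversed over all retained cells and in proximal tubule-like cells with each shared barcode kept in 1 file (-1.44 and -1.40), with shared barcodes left out (-0.49 and -0.32), without Akita replicate 2 (-0.16 and -0.15) and without Wild-type replicate 2 (-0.81 and -0.78). With every deposited barcode it was -0.25. Without Wild-type replicate 1 it was 2.61 and 2.92. That of Aldh1a1 ranged from -3.12 and -3.09 without Akita replicate 2 and reversed without Akita replicate 1 (0.0041 and 0.098) and without Wild-type replicate 1 (1.73 and 1.79). With the replicate block alone 0 genes were called, and Aldh1a7 was 0.49 and 0.57 and Aldh1a1 -0.52 and -0.47. The replicate block together with each shared barcode kept in 1 file gave -1.41 and -1.51 for Aldh1a7, with 0 and 2 genes called. The cause of these changes was not tested.

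Same-numbered libraries correlated at -0.25 in their deviations as deposited and at 0.21 with each shared barcode in 1 file, and the labels give the numbers no pairing. A crossed replicate block, added after seeing the data, called 0 genes. The mean log2 ratio of proximal tubule-like to other cells, on CPM plus 10, ranged from 0.80 to 1.42 for Aldh1a1. As deposited, Aldh1a1 had 0 CPM in the other cells of every library. Its ratio could therefore not fall below 0 when a library was left out. For Aldh1a7 the mean ratio stayed positive, from 0.74 to 1.78, while in single libraries it was as low as -0.93. Set against the barcodes below the cell threshold in place of the other cells, the mean ratio was 0.26 ± 0.41 for Aldh1a1 and 0.66 ± 0.79 for Aldh1a7 (SD over libraries). The difference in the share of Aldh1a7 ranged from 3.48 to 17.7 points without 1 library. Depth limits Aldh1a1 most, with 38 UMIs in all.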
